A study of Mus musculus with 2 samples.

Results

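The Gimap genes encode a family of small guanosine triphosphate (GTP)-binding proteins found mainly in lymphocytes. They were examined here in CD8+ T cells of pmel-1 mice, whose T cells bear a transgenic receptor that recognises a melanocyte antigen. The members were the 8 genes Gimap1, Gimap3, Gimap4, Gimap5, Gimap6, Gimap7, Gimap8 and Gimap9, and every probe set that the platform annotation gave to 1 of them alone was used. This gave 11 of 45037 probe sets and 8 of 18193 genes. Activated cells were proliferating CD8+ T cells taken 72 h after activation, and naive cells were purified resting CD8+ T cells from mice of the same transgenic strain. Total RNA of 4 independent experiments was pooled for each group and hybridised to 1 whole-genome mouse array. No group therefore had a replicate, and no difference below carries a test or a p-value. The stimulus, the age and sex of the mice, the organ and the purification method are not stated in the labels or the design text. Because the pools hold bulk RNA, fewer cells that express a gene and less RNA per cell cannot be told apart.

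GIMAP proteins (GTPases of immunity-associated proteins) share a GTP-binding domain of the AIG1 type, and several of them sit on intracellular membranes through hydrophobic tails. The family is known for its part in the survival of resting lymphocytes. Loss of GIMAP5 depletes T cells in rats and mice, and loss of GIMAP1 depletes mature T and B cells in mice. The genes lie in a single cluster on mouse chromosome 6, with a pseudogene and a noncoding RNA gene but no other protein-coding gene annotated between them.

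All 11 Gimap probe sets had a lower intensity on the activated array than on the naive array, by amounts that ranged from hardly any difference to more than 3-fold. A gene was called lower when it was at least 1.4-fold lower and its intensity differed by more than 100, with values under 100 raised to 100 before the ratio was formed. For a gene with several probe sets the one with the highest mean intensity was used. By this rule 6 of the 8 Gimap genes were lower in activated cells and 0 were higher, whereas 20.6% of 9842 measured genes were lower and 23.7% higher. A measured gene is one whose intensity reached 100 on at least 1 array, and all 8 members did. Counted singly, 8 of the 11 Gimap probe sets were lower and 0 higher, against 19.3% lower and 21.9% higher among 19250 measured probe sets. At a minimum of 2-fold, 3 of the 8 genes were lower, against 9.19% of all measured genes, and 4 of the 11 probe sets, against 9.09% of all measured probe sets. The median log2 ratio of the Gimap genes, activated over naive, was -0.63, and that of all measured genes was 0.01.

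**Figure D1:**
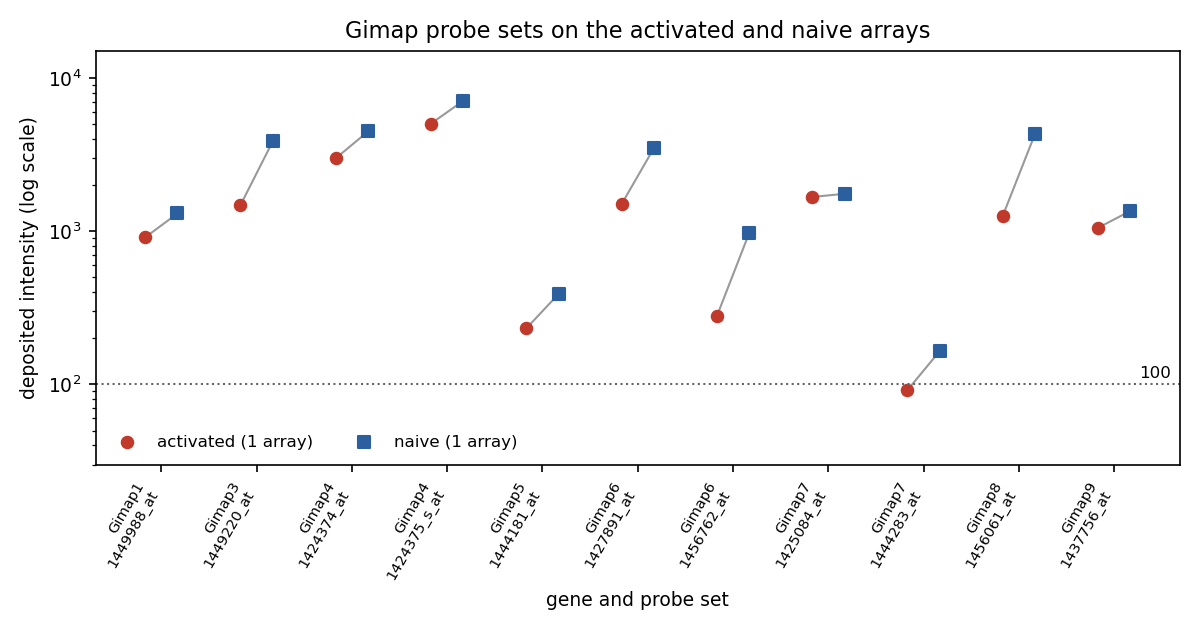
Deposited intensity (log scale) of each of the 11 Gimap probe sets on the activated array (circles) and the naive array (squares), 1 array per group, with a line joining the values of a probe set and a dotted line at 100. Every circle lies below its square, and the smallest fold drop is that of Gimap7 probe set 1425084_at, at 1669 in activated and 1752 in naive cells.

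Gimap8, Gimap3 and Gimap6 had the largest fold differences by the main probe sets. Gimap8, the longest protein of the family with several GTP-binding domains, had an intensity of 1258 in activated cells and 4329 in naive cells. The activated value was 29.0% of the naive one (3.44-fold lower, log2 ratio -1.78), and only 2.20% of measured genes had a ratio as low or lower. Gimap3, which in mice influences the segregation of mitochondrial DNA in blood-forming tissue, was at 1474 in activated and 3852 in naive cells (2.61-fold lower). Its ratio was among the lowest 4.70% of measured genes. Gimap6, whose product binds the autophagy protein GABARAPL2, was at 1498 in activated and 3486 in naive cells (2.33-fold lower) on its brighter probe set. The other Gimap6 probe set, 1456762_at, was at 279 in activated and 974 in naive cells, which is 3.49-fold lower. Both probe sets thus placed Gimap6 more than 2-fold lower, but they differed from each other by 0.59 on the log2 scale.

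By the main probe sets, Gimap8, Gimap3 and Gimap6 had the largest fold differences and Gimap7 the smallest. Their upstream stretches are shown because these genes lie in 1 cluster and yet differed in size of response. They are the 250 bases before the annotated start of each gene from RefSeq, mouse build GRCm38.p6, read 5′ to 3′ on the gene's own strand. Capitals mark matches on either strand to AGGAAG, 1 spelling of sites of the ETS transcription factor family, called the ETS letters below. All motifs below were searched on both strands.
Gimap8 (chr6:48646984-48647233, plus strand): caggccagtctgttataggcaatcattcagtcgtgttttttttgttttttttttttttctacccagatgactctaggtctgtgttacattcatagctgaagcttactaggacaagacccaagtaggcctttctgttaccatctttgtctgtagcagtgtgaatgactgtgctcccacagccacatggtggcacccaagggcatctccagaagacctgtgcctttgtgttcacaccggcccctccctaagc
Gimap3 (chr6:48770852-48771101, minus strand): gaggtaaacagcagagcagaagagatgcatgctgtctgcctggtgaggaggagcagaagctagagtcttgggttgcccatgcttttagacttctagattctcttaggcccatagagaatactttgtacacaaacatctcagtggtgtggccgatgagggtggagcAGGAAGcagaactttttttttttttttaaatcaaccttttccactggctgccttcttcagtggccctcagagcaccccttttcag
Gimap6 (chr6:48708245-48708494, minus strand): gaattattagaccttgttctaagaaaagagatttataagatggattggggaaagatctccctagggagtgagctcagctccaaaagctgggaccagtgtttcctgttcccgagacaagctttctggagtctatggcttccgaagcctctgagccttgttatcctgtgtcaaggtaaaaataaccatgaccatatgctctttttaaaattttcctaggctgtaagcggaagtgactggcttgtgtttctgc
Gimap7 (chr6:48718371-48718620, plus strand): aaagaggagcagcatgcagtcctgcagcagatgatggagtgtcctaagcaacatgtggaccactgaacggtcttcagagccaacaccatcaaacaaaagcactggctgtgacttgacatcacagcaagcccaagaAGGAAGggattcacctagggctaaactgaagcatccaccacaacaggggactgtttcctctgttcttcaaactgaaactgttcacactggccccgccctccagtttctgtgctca
Starts of all 8 genes were found, with 9 windows in all because Gimap8 has 2 annotated starts, whose windows overlap. The ETS letters occurred in 7 of the 9 windows, and in 29.5% of 32851 mouse windows of the same length. They were absent from the window of Gimap6 and from that of the first Gimap8 start, printed above, and present in that of the second Gimap8 start. Other spellings of ETS sites were not searched, such as cggaag in the printed Gimap6 window. The match nearest to a start lay 33 bases upstream in Gimap4, which held 2 matches, followed by 45 bases in Gimap5. The RUNX letters TGTGGT occurred in the windows of Gimap1, Gimap4 and Gimap7, and in 14.0% of all windows. The KLF letters CACCC occurred in 6 of the 9 windows, which belong to 5 genes, and in 52.0% of all windows. The overlapping Gimap8 windows share a match to these KLF letters, so that it is counted in both. Letters of FOXO factors, TGTTTAC, occurred upstream of Gimap3 and in 3.17% of all windows. The TATA box letters TATAAA occurred upstream of Gimap6 but 219 bases away from its start, and in 12.4% of all windows. None of the 9 windows held the TCF and LEF letters CTTTGA, found in 13.8% of all windows, or the E2F letters TTCCCGC, found in 3.82%. Nor did any hold the E-box CACGTG, found in 6.02% of all windows, or the RBPJ letters GTGGGAA, found in 5.42%. A match describes letters in a window and not a bound site. The ETS letters were chosen for capitals after these counts were seen. The windows had a median GC content of 47.6%, and all windows 52.4%.

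Gimap5, Gimap1 and Gimap4 were lower by smaller factors. Gimap5, needed for T cell survival in rats and mice, had 232 in activated and 389.7 in naive cells (1.68-fold lower). Gimap5 shares long stretches with Gimap3, and the gene table lists the name Gimap5 among the older synonyms of Gimap3, so that the split of signal between this pair is uncertain. Gimap1 was at 909 in activated and 1304 in naive cells (1.43-fold lower). Gimap4, linked in mice to the pace of T cell death, was at 5022 in activated and 7087 in naive cells (1.41-fold lower). The second Gimap4 probe set, 1424374_at, had 2981 in activated and 4468 in naive cells (log2 ratio -0.58, against -0.50 for the first), so that both lay close to each other and just past the 1.4-fold minimum. Ratios as low as that of Gimap5 were found in 14.6% of measured genes, as low as that of Gimap1 in 22.3% and as low as that of Gimap4 in 23.2%.

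Gimap9 and Gimap7 did not pass the size rule. Gimap9 had 1051 in activated and 1355 in naive cells, a log2 ratio of -0.37 or 1.29-fold. Gimap7, a GTPase that in humans forms dimers with other members, had 1669 in activated and 1752 in naive cells, a log2 ratio of -0.07. Its second probe set, 1444283_at, was dim, with 91.9 in activated and 166 in naive cells, at least 1.66-fold lower but with a difference under 100. The 2 Gimap7 probe sets were at least 0.66 apart on the log2 scale, the widest gap among the 3 genes with 2 probe sets. The remaining 5 genes rested on 1 probe set each.

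**Figure D2:**
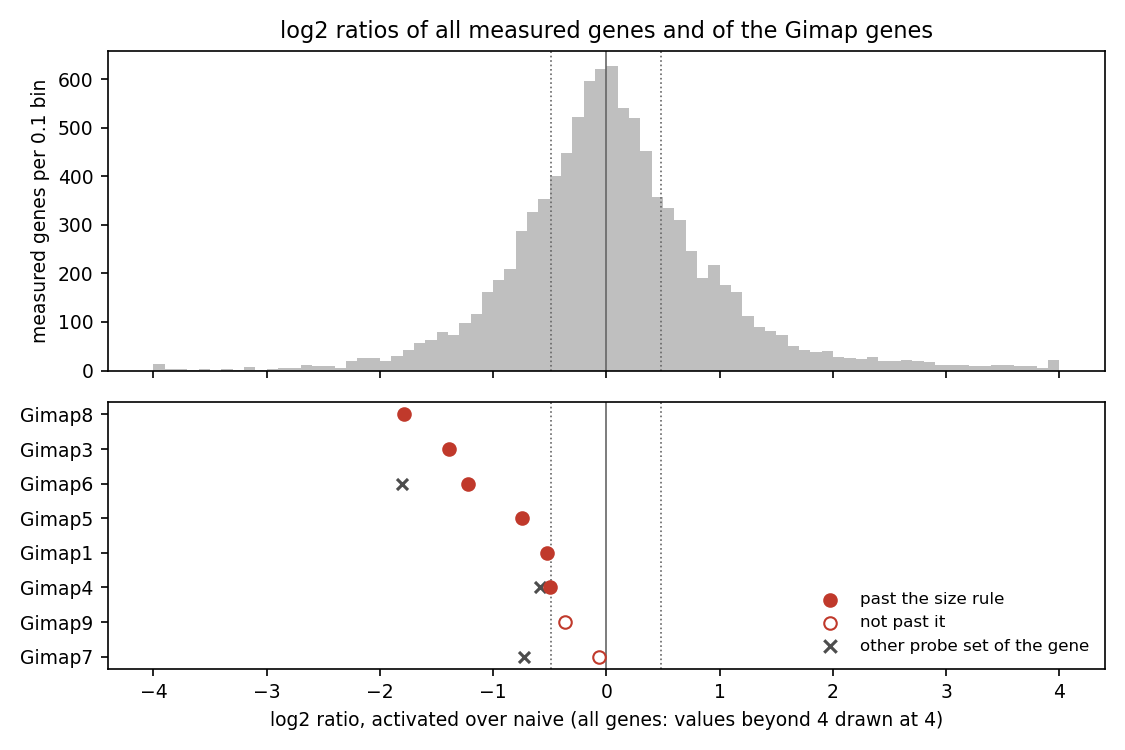
Upper panel, the number of measured genes in each 0.1 bin of the log2 ratio, activated over naive. Lower panel, the log2 ratio of each Gimap gene by its main probe set (filled where past the size rule, open where not) with crosses for second probe sets and dotted lines at 1.4-fold. The Gimap genes range from -1.78 for Gimap8 to -0.07 for Gimap7, all left of 0.

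With no replicates, 2 yardsticks within the arrays show how large these differences were. Spike-in controls, 18 probe sets above 100 on both arrays for added RNAs that are not from the cells, gave log2 ratios from -0.42 to 0.20. Such controls do not hold the spread between cells or experiments, so that range is a narrow yardstick. The ratios of Gimap9 and Gimap7 lay within that range and those of the other 6 genes below it. Across 3404 genes with several bright probe sets, the log2 ratio varied between probe sets of the same gene with a standard deviation of 0.39, which gives 0.55 for the difference of 2 probe sets. None of the 7 steps between neighbours in the order Gimap8, Gimap3, Gimap6, Gimap5, Gimap1, Gimap4, Gimap9, Gimap7 exceeded 0.55, so that adjacent genes in this order are not separated. Of the 28 pairs of members, 16 differed by more than 0.55 and 6 by more than 1.10. By the main probe sets, Gimap8 and Gimap7 at the ends of the order differed by 1.71.

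Along chromosome 6 the largest fold drops were not adjacent. In the order of the gene table the cluster runs Gimap8, Gimap9, Gimap4, Gimap6, Gimap7, Gimap1, Gimap5, Gimap3. Gimap8 and Gimap3, with 2 of the 3 largest fold drops, lie at its ends, and Gimap6 lies between Gimap4 and Gimap7. Of the 20 nearest genes with a probe set, 10 on each side, 13 were measured, of which 5 were lower and 3 higher, with a median log2 ratio of -0.16. Over all measured genes 20.6% were lower and 23.7% higher, and the share of higher neighbours lay near the latter. Next to Gimap3, Tmem176b and Tmem176a, which encode membrane proteins, were at 44.2 and 132 in activated cells, against 441 and 273 in naive cells (at least 4.41-fold and 2.06-fold lower). Next to Gimap8, the pseudogene AI854703 was at 348 in activated and 415 in naive cells and Zfp775 at 105 in activated and 96.8 in naive cells, neither past the size rule. Farther out, Lrrc61 was 2.57-fold lower, Ccdc126 at least 2.29-fold lower and Krba1 at least 1.55-fold lower. Repin1 was at least 2.46-fold higher, Malsu1, a mitochondrial ribosome assembly factor, 1.78-fold higher and the splicing regulator Tra2a 1.51-fold higher. Igf2bp3 (275 in activated and 236 in naive cells), Doxl1 (75.4 in activated and 111 in naive cells) and Fam221a (105 in activated and 25.8 in naive cells) did not pass. The other 7 neighbours lay under 100 on both arrays.

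**Figure D3:**
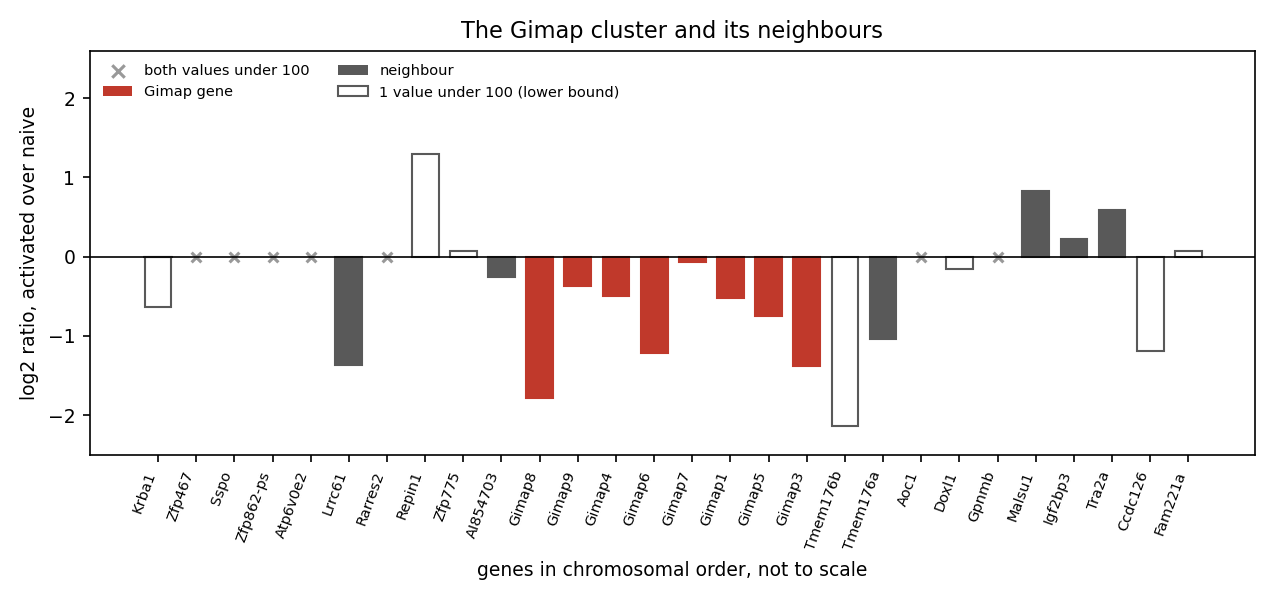
Log2 ratio, activated over naive, of the 8 Gimap genes and the 10 genes on each side of them in chromosomal order, not to scale. Open bars are lower bounds and crosses mark genes under 100 on both arrays. Every Gimap bar points down, while neighbours point both ways, from at least 4.41-fold lower for Tmem176b to at least 2.46-fold higher for Repin1.

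Lists of T cell and cell cycle genes give the setting for these values. All 10 CD8 T cell markers were measured on both arrays, with 5 lower in activated cells, 0 higher and a median log2 ratio of -0.50, beside the -0.63 of the Gimap genes. Among all measured genes 20.6% were lower and 23.7% higher. Cd8b1 was at 3554 in activated and 7725 in naive cells, Cd3d at 6597 in activated and 7378 in naive cells and Cd3g at 5323 in activated and 6261 in naive cells. Genes of resting naive T cells had a lower median of -1.55, with 15 of 16 lower. Among them S1pr1, which guides T cells out of lymph nodes, had 359 in activated and 2253 in naive cells, Igfbp4 had 255 in activated and 1909 in naive cells and Tsc22d3, induced by glucocorticoids, had 248 in activated and 1548 in naive cells, while Foxp1 was 1.82-fold lower and Bach2, at 1184 in activated and 1092 in naive cells, did not pass. Cell cycle genes went the other way in 14 of 14 cases, with a median of 2.52, from 2.07-fold higher for Mcm2 and 2.67-fold for Mcm7 to 12.6-fold for Ccnb2, 14.5-fold for Mki67 and 21.4-fold for Cdk1. The genes whose intensities on both arrays were nearest to those of Gimap4, the member with the highest mean, were Arhgdib, Cd3g and Cd8a. This likeness covers 2 arrays only and is one of probe signal, not of transcript number. Arhgdib was at 5543 in activated and 7156 in naive cells.

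Of the other GTP-binding families, the interferon-inducible GTPases were mostly lower, as the Gimap genes were, and the septins had no single direction. Over all measured genes 20.6% were lower and 23.7% higher. Of 11 measured interferon-inducible GTPases, which restrict intracellular pathogens, 8 were lower and 1 higher, with a median log2 ratio of -0.97. Gbp8 was 9.07-fold lower, Gbp6 2.88-fold and Irgm2 2.46-fold, whereas Igtp (3047 in activated and 3513 in naive cells) and Gbp2 (2421 in activated and 2164 in naive cells) did not pass. Members of these families are close in sequence, so single genes among them are uncertain. Of 8 measured septins, GTP-binding proteins that form filaments, 3 were lower and 3 higher, with a median of -0.05. Septin11 was 2.97-fold higher, Septin10 at least 2.14-fold higher and Septin1 1.92-fold lower, while Septin2 (2239 in activated and 2678 in naive cells) and Septin3 (151 in activated and 136 in naive cells) did not pass.

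Lists of genes whose products have been linked to GIMAP proteins are given beside the shares over all measured genes, 20.6% lower and 23.7% higher. Their counts are small, and those of the BCL2, GABARAP and ceramide lists lie near these shares, so they are no result about the lists. In the BCL2 family, regulators of cell death with reported GIMAP partners, 2 of 13 measured genes were lower and 3 higher, with a median of -0.15. The death-promoting Bmf was 3.44-fold lower, the survival gene Bcl2l1 (BCL-XL) higher at 643 in activated and 214 in naive cells and the death effector Bak1 2.74-fold higher, while Mcl1 (3239 in activated and 3599 in naive cells) and Bbc3 (168 in activated and 185 in naive cells) did not pass. Gabarapl2, which encodes the partner of GIMAP6 named above, was at 1008 in activated and 1157 in naive cells and did not pass. Of its 4 relatives, Gabarapl1 was 6.62-fold higher and Gabarap 1.68-fold lower, and Map1lc3b, at 2457 in activated and 2788 in naive cells, did not pass, nor did Map1lc3a. The median of the 5 genes was -0.20. Among 9 genes of the GSK3 and FOXO pathways, which have been linked to GIMAP5 in mouse T cells, 3 were lower and 1 higher, with a median of -0.28. The transcription factor genes Foxo1 and Klf2, also in the naive T cell list, were 3.04-fold and 2.68-fold lower. Nfatc1 was 1.77-fold lower and Myc 2.06-fold higher, while Foxo4 (148 in activated and 173 in naive cells) and Gsk3a (1545 in activated and 1868 in naive cells) did not pass. With only 9 genes, the counts of this list are no result about it either. In ceramide synthesis, 2 of 8 measured genes were lower and 1 higher, with a median of -0.12. The ceramide synthase Cers6 was 1.93-fold lower, Kdsr 1.55-fold lower and Sptlc1, a subunit of the first enzyme, 1.49-fold higher, while Sptlc2 (343.2 in activated and 343.4 in naive cells) and Cers5 (958 in activated and 964 in naive cells) lay nearest to 0.

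**Figure D4:**
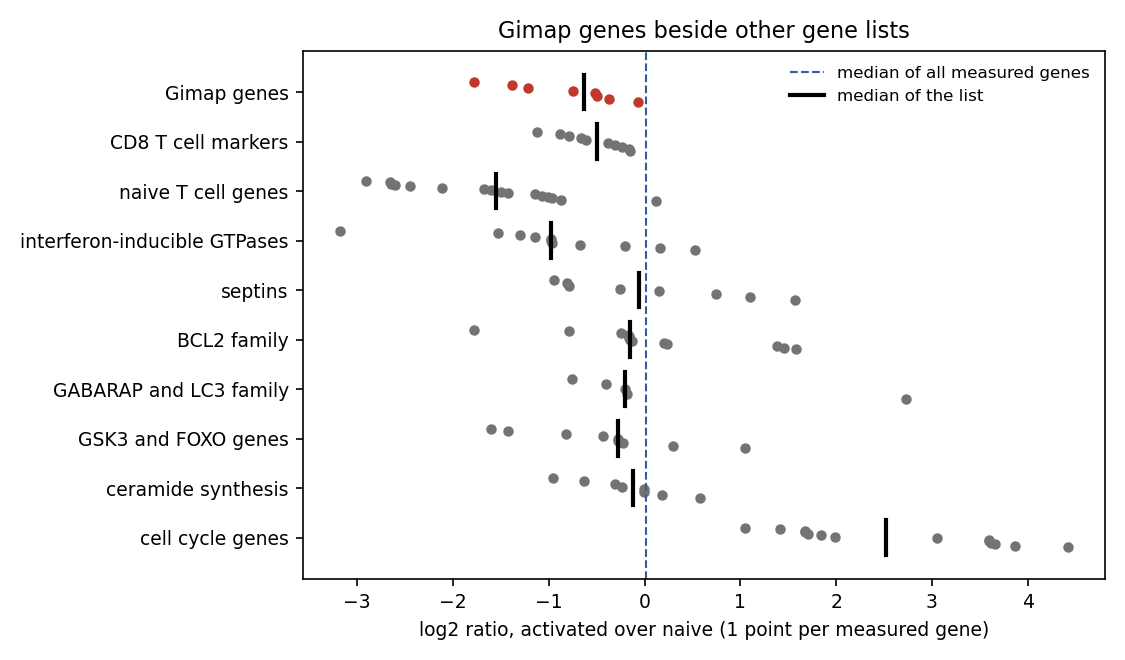
Log2 ratio, activated over naive, of each measured gene in the Gimap family and in 9 other lists, with a bar at each list's median and a dashed line at the median of all measured genes (0.01). Genes with 1 value under 100 are drawn at their bound. The Gimap median of -0.63 lies between those of naive T cell genes (-1.55) and CD8 T cell markers (-0.50).

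Markers of other cells were examined because B cells, NK cells and endothelial cells also express Gimap genes. All of these lists had lower sums in the activated pool, though hardly so for CD4 T cell and platelet markers. The counts below stand beside 20.6% lower and 23.7% higher among all measured genes. Of 7 B cell markers on the array, 4 were measured and 2 lower, and their summed intensity was 503 in activated and 1109 in naive cells. Cd22 was at 261 in activated and 397 in naive cells, Cd79b at 40.04 in activated and 293 in naive cells and Ms4a1 at 43.9 in activated and 136 in naive cells, while Pax5, Ebf1 and Blk lay under 100 on both arrays. Of 3 NK cell markers, 2 were measured and lower, with sums of 273 in activated and 1022 in naive cells. Eomes, which CD8 T cells also express, was at 215 in activated and 725 in naive cells and Klra8 at 29.9 in activated and 242 in naive cells, while the NK receptor gene Ncr1 lay under 100 on both (27.8 in activated and 54.7 in naive cells). Of 8 endothelial markers 2 were measured, with sums of 558 in activated and 816 in naive cells. Pecam1, found on many leukocytes as well, was at 201 in activated and 511 in naive cells and Egfl7 at 239.7 in activated and 185 in naive cells, and the defining genes Cdh5, Kdr, Tek, Vwf, Emcn and Tie1 lay under 100 on both arrays (Tek at 49.9 in activated and 57.2 in naive cells). Of 8 dendritic cell and class II genes, 4 were measured and 3 lower, with sums of 962 in activated and 5998 in naive cells. The 3 lower genes were Cd74 (405 in activated and 3003 in naive cells), H2-Aa (83.0 in activated and 2007 in naive cells) and H2-Ab1 (302 in activated and 701 in naive cells). Itgax, at 27.6 in activated and 115 in naive cells, did not pass. Flt3, Siglech, Zbtb46 and Xcr1 lay under 100 on both arrays. Erythroid markers summed to 172 in activated and 7114 in naive cells, nearly all of it Hbb-b2, at 1 in activated and 6852 in naive cells, with 1 of 4 markers lower. Klf1 (124 in activated and 84.5 in naive cells) and Alas2 (1 in activated and 127 in naive cells) did not pass. The other globin gene listed, Hba-a1, lay under 100 on both arrays (45.9 in activated and 50.9 in naive cells). Of 10 myeloid markers, 3 were measured and 2 lower, with sums of 882 in activated and 1347 in naive cells, and with Csf1r at 345 in activated and 642 in naive cells, Lyz2 at 21.8 in activated and 173 in naive cells and Mpo at 124 in activated and 98.01 in naive cells. The 4 CD4 T cell markers, 1 of them measured, summed to 235 in activated and 251 in naive cells, and the 5 platelet markers, 2 of them measured, to 502 in activated and 537 in naive cells, with 0 passing the size rule in both lists. Zbtb7b was at 85.2 in activated and 104 in naive cells, Foxp3 at 65.9 in activated and 76.5 in naive cells and Cd4 at 50.5 in activated and 45.1 in naive cells. Pf4 was at 190.2 in activated and 209 in naive cells, Itga2b at 165.3 in activated and 164.6 in naive cells and Gp1bb at 93.7 in activated and 99.2 in naive cells. No marker was listed at 0, since the lowest deposited value is 1. The part of these cells in the Gimap values was not tested.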

How the data were processed

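Expression was measured on 2 Affymetrix Mouse Genome arrays, 1 for activated and 1 for naive CD8+ T cells. The authors deposited linear intensities, 1 for each probe set, made by dChip's perfect-match minus mismatch model and scaled by its invariant set method, per the series' design text. Present calls came from GCOS 1.3, per the same text, and were not used here. Of 45101 probe sets, 64 were controls and entered no count. Gene symbols came from the platform annotation (34945 probe sets with 1 symbol, 932 with several, 9160 unnamed here). RefSeq's gene table of GRCm38.p6 changed 0 symbols and gave the order of genes on the chromosome. No probe set named a Gimap gene together with others.

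Values under 100 were raised to 100 before the log2 ratio was formed. A fold with 1 value below 100 is therefore a bound. The size rule keeps those parts of the study's own rule that intensities allow, and with 1 array per group it is no test. Named genes were all members and their probe sets, measured neighbours, up to 3 largest and 2 smallest ratios per list past or within the rule, the 3 genes of nearest intensity, and up to 3 markers per cell type with the highest value. Map1lc3a, Nfatc1, Pax5, Ebf1, Blk, Cdh5, Kdr, Vwf, Emcn, Tie1, Itgax, Flt3, Siglech, Zbtb46, Xcr1 and Hba-a1 were named outside that rule. Listed genes without a probe set of their own were not analysed here. Members and lists were chosen with earlier results of these data known. The size rule was run on simulated data with planted changes of at least 2-fold, so that run does not cover calls near 1.4-fold. No result given here rests on that run. Alternatives were a fold minimum of 2, difference minimums of 50 and 200, floors of 50 and 200, median, quantile and loess scaling, the mean over probe sets, and leaving out probe sets whose names end in _s_at or _x_at, which can match several transcripts. Calculations used Python 3.11.15, pandas 2.3.3, numpy 2.4.6 and statsmodels 0.14.6.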

Additional observations from a re-analysis of the deposited data

How the results depend on the processing

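Under 10 alternatives no Gimap gene was higher, and every log2 ratio stayed below 0. The fold and difference minimums do not enter the ratio. The alternative floors lay below every main probe set value, the lowest being 232.1 for Gimap5 in activated cells. These alternatives therefore could not move a ratio or its sign. Only the scalings could do so for every gene, and the choice of probe sets only for genes with several. With a fold minimum of 2, the genes called lower dropped to 3 (Gimap3, Gimap6 and Gimap8) and the probe sets to 4, because the threshold itself is higher. With a difference minimum of 200, Gimap5 was no longer called. Gimap3, Gimap6 and Gimap8 were called lower under all 10 alternatives, and Gimap7 and Gimap9 under none of them. In the deposited values Gimap4 and Gimap1 lay just past 1.4-fold. Over the alternatives the log2 ratio of Gimap1 ran from -0.58 to -0.52 and that of Gimap4 from -0.80, under quantile normalization, to -0.50. That of Gimap7 ran from -0.40, for the mean over probe sets, to -0.07. With that mean the smallest difference was that of Gimap9, at -0.37, so the place of Gimap7 in the order depends on the probe set used. The median log2 ratio of the family ran from -0.79 to -0.63. Including probe sets of several genes gave no separate value, since none named a Gimap gene. No paired analysis was possible because each group has 1 array. Precision is limited by having 1 pooled array per group, and the dim second probe set of Gimap7 lies near 100.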
